A study of Mus musculus with 6 samples.

Results

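Cdkn1c, Hsd17b14, Dmrt1 and Ak1 are 4 genes with some of the lowest messenger RNA or ribosome footprint ratios after knockdown of pyruvate kinase M (PKM) in mouse embryonic stem cells. They are 4 of the 6532 genes used from the deposited table, which held 6535 rows. They were selected on their siPKM over siCtrl ratios of reads in RNA or in ribosome-protected fragments (RPF), so every such ratio below is a description and supports nothing about the genes. The crosslinks to tagged PKM2 took no part in choosing them. The translation efficiency of the control cells did not choose them directly, but it is made of the siCtrl counts by which the choosing ratios are divided, and the reads outside the coding sequence come from the same libraries.

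All 6 libraries came from E14, an established mouse embryonic stem cell line. The knockdown cells were wild-type E14 transfected for 36 h with 20 nM of an siRNA pool against PKM (siPKM), and the control cells were wild-type E14 given 20 nM of a non-targeting pool (siCtrl) for the same time; both were passaged 16 h before harvest. Each siRNA gave 1 RNA library, from total RNA without rRNA, and 1 RPF library, made after cycloheximide at 100 µg/ml for 2 min and digestion with RNase A and RNase T1. The other 2 libraries were iCLIP replicates, in which PKM2 carrying a FLAG-HA tag was crosslinked to RNA with UV light at 0.35 J per cm2 and the stops of reverse transcription beside the crosslinks were counted. With 1 library per siRNA and kind, no difference between siPKM and siCtrl has a replicate check and none was tested. The cells were a transfected population, and fewer cells with a message and less of that message per cell cannot be told apart.

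The 4 proteins have different tasks. Cdkn1c (p57Kip2) is an inhibitor of cyclin-dependent kinases that holds cells in G1, and it is imprinted, being expressed mainly from the maternal allele. Hsd17b14 is a short-chain dehydrogenase that oxidises hydroxysteroids and sugars in biochemical assays of the human enzyme. Dmrt1 is a transcription factor with a DM domain, known for keeping male fate in the testis and for its role in germ cells. Ak1 is the cytosolic adenylate kinase, which interconverts ATP, ADP and AMP and so passes high-energy phosphate through the cell. Pyruvate kinase itself makes ATP and pyruvate in the last step of glycolysis.

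The coding sequence (CDS, without its first 15 and last 5 codons) held 10357272 reads in the siPKM RNA library, 12122153 in the siCtrl RNA library, 12559907 in the siPKM RPF library and 15193841 in the siCtrl RPF library. The targeted gene, listed as Pkm2 (NM_011099), stood at 1582 CPM (CDS reads scaled to a common library total) in siPKM RNA against 5024 in siCtrl RNA. Of 14 embryonic stem cell markers 13 were in the table (Nanog was not among the rows used), with a summed level of 5271 CPM in siPKM RNA and 5267 CPM in siCtrl RNA. In each kind 1 of the 13 was at least 1.5-fold higher and 0 were lower by that much. Of the marker symbols of other cells the table held 3 of 10 for trophoblast, where Tfap2c was named under 2 symbols, and 1 of 8 for primitive endoderm. It held 3 of 5 for neural cells, 1 of 6 for fibroblasts, 4 of 5 for germ cells, 0 of 4 for mesoderm and 0 of 5 for two-cell-like cells. The neural markers (Pax6, Nes and Tubb3) summed to 125 CPM in siPKM RNA against 177 CPM in siCtrl RNA and to 119.96 CPM in siPKM RPF against 176 CPM in siCtrl RPF, and 1 of the 3 was at least 1.5-fold lower in RNA and 2 in RPF. The fibroblast marker Vim stood at 304 CPM in siPKM RNA against 229 CPM in siCtrl RNA and at 536 CPM in siPKM RPF against 394 CPM in siCtrl RPF. The summed RNA level was 83.6 CPM in siPKM against 77.5 CPM in siCtrl for trophoblast and 16.4 CPM against 15.1 CPM for primitive endoderm. The trophoblast sum hides opposite directions: of its 3 markers, 1 was at least 1.5-fold lower and 1 at least 1.5-fold higher in each kind. The part of these cells in the values of the 4 genes was not tested.

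Cdkn1c (NM_001161624) had 173 CDS reads in siPKM RNA against 433 in siCtrl RNA, or 16.7 CPM (95% Poisson interval 14.3 to 19.4) against 35.7 CPM (32.5 to 39.3). Its footprints numbered 447 in siPKM against 1002 in siCtrl, or 35.6 CPM (32.4 to 39.1) against 66.0 CPM (62.0 to 70.2). The siPKM library was the lower one of each kind. Relative to the median gene, the log2 ratio of siPKM over siCtrl was -1.14 in RNA (95% interval from the read counts -1.40 to -0.89) and -0.91 in RPF (-1.07 to -0.75).

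Hsd17b14 (NM_025330) had 158 RNA reads in siPKM against 385 in siCtrl, or 15.3 CPM (12.98 to 17.8) against 31.8 CPM (28.7 to 35.1). Its footprints were far more numerous, at 1420 in siPKM against 3182 in siCtrl, or 113 CPM (107 to 119) against 210 CPM (202 to 217). Both kinds of library were again lower in siPKM, and the footprint ratio is the best counted of the 4 genes. The log2 ratios were -1.10 in RNA (-1.37 to -0.84) and -0.91 in RPF (-1.001 to -0.820).

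Dmrt1 (NM_015826) had 168 RNA reads in siPKM against 338 in siCtrl, or 16.2 CPM (13.9 to 18.9) against 27.9 CPM (25.0 to 31.0). Its footprints numbered 244 in siPKM against 685 in siCtrl, or 19.4 CPM (17.1 to 22.0) against 45.1 CPM (41.8 to 48.7). The distance between the siRNAs was wider in footprints than in RNA. The log2 ratios were -0.83 in RNA (-1.09 to -0.56) and -1.23 in RPF (-1.44 to -1.02).

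Ak1 (NM_021515, isoform 1 in the table) had 167 RNA reads in siPKM against 365 in siCtrl, or 16.1 CPM (13.8 to 18.8) against 30.1 CPM (27.1 to 33.4). Its footprints numbered 173 in siPKM against 457 in siCtrl, or 13.8 CPM (11.8 to 16.0) against 30.1 CPM (27.4 to 33.0). It had the fewest footprints of the 4 genes in either siRNA. The log2 ratios were -0.95 in RNA (-1.21 to -0.68) and -1.15 in RPF (-1.40 to -0.89).

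**Figure D1:**
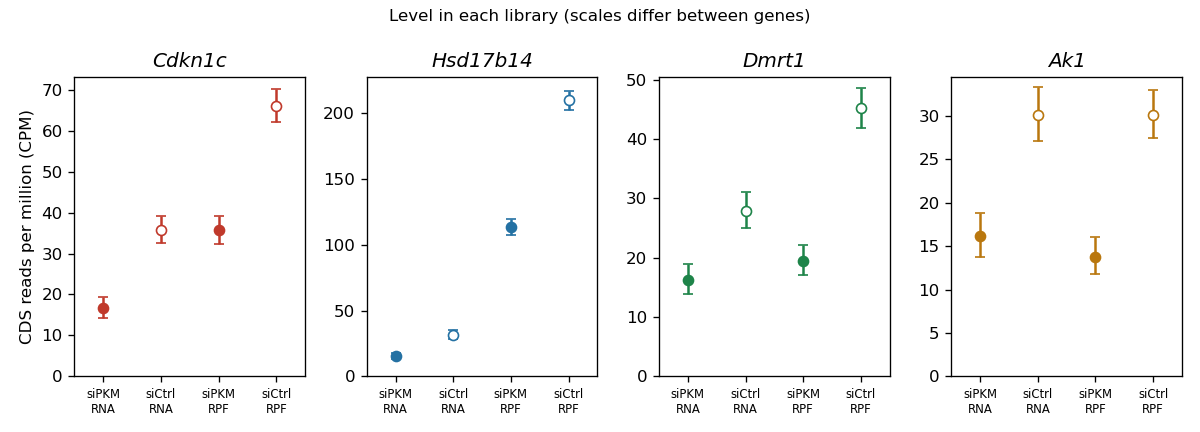
CPM of CDS reads in the siPKM (filled) and siCtrl (open) libraries of RNA and RPF, 1 panel per gene with its own axis from 0; bars are 95% Poisson intervals of the read counts. In each panel the siPKM point lies below the siCtrl point of the same kind, for Hsd17b14 at 113 against 210 CPM in RPF.

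The 4 genes were all at least 1.5-fold lower in siPKM in both RNA and RPF. Over all genes used, 1.24% were lower by 1.5-fold or more in RNA, 1.53% in RPF and 0.735% in both. Among the 1235 genes with 300 to 500 siCtrl RNA reads, the range that holds all 4, the shares were 1.78% in RNA and 1.86% in RPF. Because these ratios chose the genes, nothing is read from the counts.

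They are not simply the 4 lowest genes. After Pkm, the lowest 5 in RNA were Psmb10 (-1.20), Cdkn1c, Hsd17b14, Notum (-1.09) and the DNA methyltransferase Dnmt3b (-1.08), and next came the histone Hist3h2a (-1.08), the mitochondrial nuclease Endog (-1.07) and Echdc2 (-1.03). The lowest 5 in RPF were Psmb10 (-1.32), the neuronal filament Ina (-1.24), Dmrt1, Ak1 and Dnmt3b (-1.14), followed by the fatty acid transporter Slc27a2 (-1.13), the kinase Clk1 (-1.10) and Gatsl3 (Castor1, -1.09). Counting Pkm, the ranks from the lowest in RNA were 3 for Cdkn1c, 4 for Hsd17b14, 13 for Ak1 and 22 for Dmrt1, and in RPF they were 14, 13, 5 and 4 for the same genes in that order. Cdkn1c and Hsd17b14 thus stood nearer the bottom in RNA, and Dmrt1 and Ak1 nearer the bottom in RPF.

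**Figure D2:**
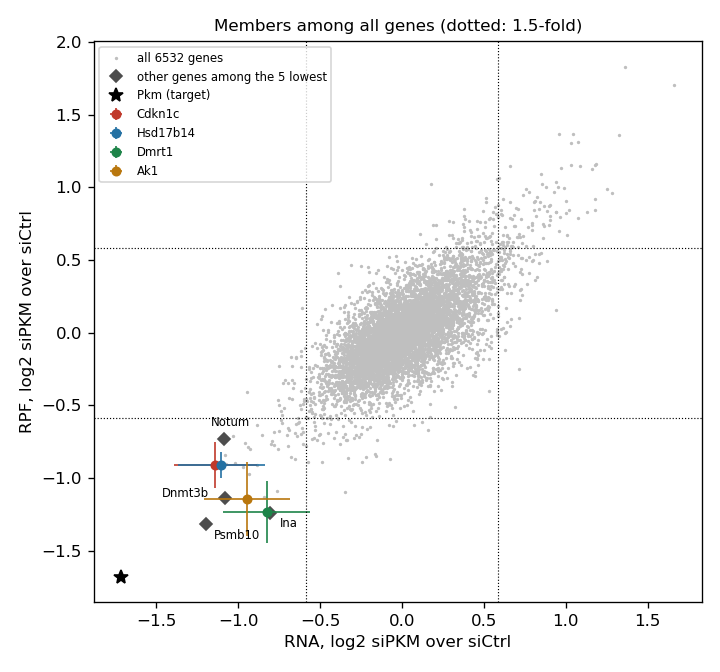
Log2 ratio of siPKM over siCtrl in RNA (x axis) and RPF (y axis) for 6532 genes, with the 4 genes in colour (bars are 95% intervals from the read counts), the target as a star and the other genes among the lowest 5 as diamonds. The 4 genes lie past the dotted 1.5-fold lines on both axes, with Cdkn1c and Hsd17b14 farther left and Dmrt1 and Ak1 farther down.

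The depth of the table sets how low these ratios could go. Every row had at least 151 CDS reads in each RNA and RPF library, and a gene under that level is not analysed here. In siPKM RNA only 37 genes had fewer reads than Hsd17b14, 93 fewer than Ak1, 96 fewer than Dmrt1 and 128 fewer than Cdkn1c. At the siCtrl read count of each gene, the lowest RNA ratio that a listed gene could show was -1.17 for Hsd17b14, -1.34 for Cdkn1c, -1.09 for Ak1 and -0.98 for Dmrt1. The measured RNA ratios lay 0.07, 0.20, 0.14 and 0.15 above these limits, for the genes in that order. In RPF the limits were farther away for Hsd17b14 (-4.14), Cdkn1c (-2.47) and Dmrt1 (-1.92), and near for Ak1 (-1.34).

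Translation efficiency (TE), the log2 ratio of footprint CPM to RNA CPM in the CDS, differed between the genes in both siRNAs. Hsd17b14 had a TE of 2.89 ± 0.24 in siPKM cells and 2.72 ± 0.15 in siCtrl cells, where ± is the half-width of the 95% interval from the read counts. That is 7.39 footprint CPM per RNA CPM in siPKM and 6.59 in siCtrl, at ranks 10 and 25 from the highest of 6532 genes. Cdkn1c stood at 1.09 ± 0.25 in siPKM and 0.88 ± 0.16 in siCtrl. Dmrt1 stood at 0.26 ± 0.28 in siPKM and 0.69 ± 0.19 in siCtrl, and Ak1 at -0.23 ± 0.31 in siPKM and -0.00 ± 0.20 in siCtrl. The median gene was at -0.18 in both. In siCtrl the order was Hsd17b14, Cdkn1c, Dmrt1 and Ak1, of which the neighbours Cdkn1c and Dmrt1 had overlapping intervals.

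Centred on the median gene, the TE ratio of siPKM over siCtrl was 0.23 (-0.07 to 0.53) for Cdkn1c, 0.19 (-0.09 to 0.47) for Hsd17b14, -0.41 (-0.75 to -0.07) for Dmrt1 and -0.20 (-0.57 to 0.16) for Ak1. None of the 4 was 1.5-fold apart in TE, where 0.827% of all genes were lower and 0.184% higher. The intervals of Cdkn1c, Hsd17b14 and Ak1 included 0. That of Dmrt1 lay below 0, and its TE ratio had rank 214 from the lowest of 6532 genes. Dmrt1 stood nearer the bottom in RPF (rank 4) than in RNA (rank 22), so the choice alone can put its TE ratio below 0. At its siCtrl read count, its RNA ratio also could not go below -0.98. No presence or absence of a TE difference is therefore read from these intervals. With all reads of the transcript in place of the CDS the ratio of Ak1 turned to 0.0080. In the authors' deposited table, which was not centred, the log2 TE difference was 0.21 for Cdkn1c, 0.17 for Hsd17b14, -0.43 for Dmrt1 and -0.22 for Ak1. Between the genes, 6 pairs were compared. In RNA none of the 6 differences had an interval without 0, whereas in RPF and in TE 2 did. Cdkn1c minus Dmrt1 was 0.32 (0.06 to 0.59) in RPF and 0.64 (0.18 to 1.09) in TE, and Hsd17b14 minus Dmrt1 was 0.32 (0.09 to 0.55) and 0.60 (0.16 to 1.04). These intervals cover counting error only and, like the TE ratios, use the libraries that chose the genes. Cdkn1c and Hsd17b14 stood nearer the bottom in RNA and Dmrt1 in RPF, so a gap between them in RPF and TE can come from the choice alone. In RNA all 4 ratios lay 0.07 to 0.20 above the lowest that the table allows, which limits how far they could differ. Nothing is therefore read from the number of pairs.

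Reads outside the CDS gave the RNA ratio a second time from the same libraries. In the 3' UTR Ak1 had 308 RNA reads in siPKM against 776 in siCtrl, with a log2 ratio of -1.16 (-1.35 to -0.97). Cdkn1c had 206 against 441 (-0.93, -1.16 to -0.69), Dmrt1 167 against 376 (-0.999, -1.26 to -0.74) and Hsd17b14 83 against 175 (-0.90, -1.28 to -0.53). All 4 ratios lay inside the 95% interval of the CDS value. The 3' UTR held 63.4% of Ak1's RNA reads in siPKM and 66.8% in siCtrl, against 26.3% and 26.2% for the median gene, so most Ak1 RNA reads lay there.

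The 5' UTR of Cdkn1c had a ratio nearer to 0 than its CDS. It had 43 RNA reads in siPKM against 57 in siCtrl, and 65 footprints in siPKM against 97 in siCtrl. The log2 ratios were -0.20 in RNA (-0.77 to 0.37) and -0.33 in RPF (-0.78 to 0.12), above the CDS ratios of -1.14 and -0.91. As a share of all reads on the transcript, the 5' UTR took 9.93% of RNA reads in siPKM (exact Clopper-Pearson 95% interval 7.28 to 13.1) and 6.01% in siCtrl (4.58 to 7.71). Of footprints it took 12.2% in siPKM (9.56 to 15.3) and 8.58% in siCtrl (7.01 to 10.4). The intervals of both pairs overlapped slightly, and the difference was not tested. In the other genes the 5' UTR held between 1 and 38 reads or footprints per library and the intervals of their 5' UTR ratios all included 0.

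Most footprints lay in the CDS. For Hsd17b14 it held 97.7% (96.8 to 98.4) of footprints in siPKM and 97.2% (96.6 to 97.8) in siCtrl, against 88.8% and 88.5% for the median gene. For Ak1 the share was 90.6% (85.5 to 94.3) in siPKM and 95.4% (93.1 to 97.1) in siCtrl, for Dmrt1 85.9% and 86.6%, and for Cdkn1c 84.0% and 88.6%. The intervals of Dmrt1 (81.3 to 89.7 in siPKM and 84.0 to 88.9 in siCtrl) included the share of the median gene. The interval of Cdkn1c in siPKM (80.6 to 87.0) lay below it, and that in siCtrl (86.6 to 90.4) included it. Cdkn1c had 0 footprints in its 3' UTR in either library, which allows a share of up to 0.564% in siPKM and 0.265% in siCtrl. The median gene, at 0.094% in siPKM and 0.124% in siCtrl, lay below these limits. Tied with every other gene at 0, Cdkn1c stood at percentiles 17.7 and 14.6, so the 0 is not particular to it. At the start of the message the counts were small. The first 15 codons had 18 footprints in siPKM against 62 in siCtrl for Hsd17b14 (log2 ratio -1.48, -2.23 to -0.73), 14 against 47 for Dmrt1 (-1.44, -2.29 to -0.59), 12 against 22 for Cdkn1c (-0.57, -1.57 to 0.42) and 12 against 10 for Ak1 (0.53, -0.66 to 1.71). Ak1 therefore held 6.28% (3.29 to 10.7) of its footprints in these codons in siPKM and 2.09% (1.01 to 3.81) in siCtrl, from 12 and 10 reads. In the last 5 codons Hsd17b14 had 1 footprint in siPKM against 12 in siCtrl (log2 ratio -2.91, -5.36 to -0.47). Dmrt1 had 6 against 17, Cdkn1c 8 against 10 and Ak1 3 against 4, with intervals of the ratio that included 0.

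**Figure D3:**
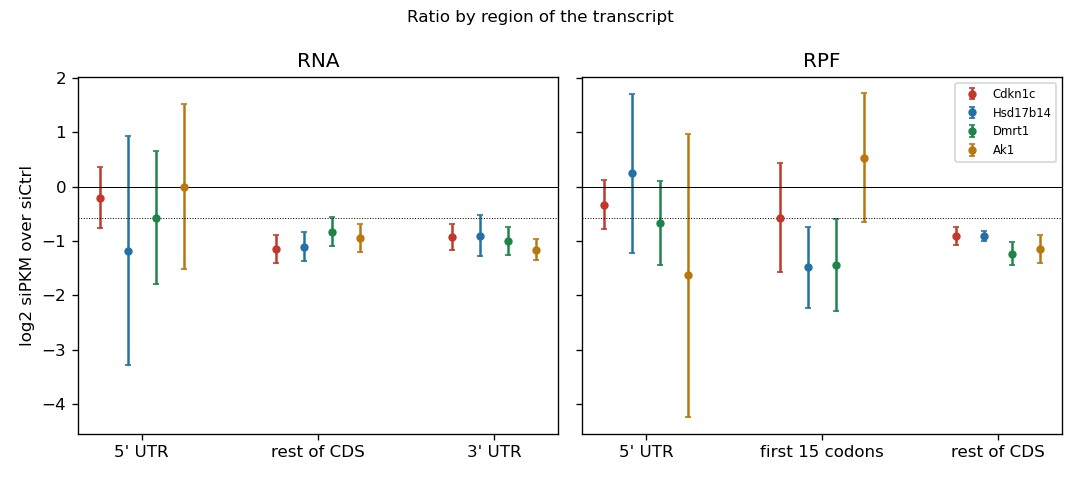
Log2 ratio of siPKM over siCtrl by region of the transcript for RNA (left) and RPF (right), centred on the median gene of each region; bars are 95% intervals from the read counts and the dotted line marks 1.5-fold lower. In RNA the CDS and 3' UTR values of the 4 genes lie between -0.83 and -1.16 and in RPF the CDS values between -0.91 and -1.23, whereas the 5' UTR of Cdkn1c lies at -0.20 in RNA; footprints in the 3' UTR, at most 9 per gene and library, are not drawn.

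The PKM2 crosslinks asked whether the enzyme contacts these messages, and took no part in choosing the genes. No library of untagged cells was among the 6, so the stops include background. Hsd17b14 had 198 stops in replicate 1 and 209 in replicate 2, or 292 and 312 CPM of stops (mean 302 ± 13.8, SD, n = 2). Ak1 had 48 and 47 stops, or 70.8 and 70.1 CPM (70.5 ± 0.53). Cdkn1c had 13 and 9 stops, or 19.2 and 13.4 CPM (16.3 ± 4.08), and Dmrt1 7 and 6 stops, or 10.3 and 8.95 CPM (9.64 ± 0.98). The order Hsd17b14, Ak1, Cdkn1c, Dmrt1 was the same in both replicates. Cdkn1c and Dmrt1 were not apart in counting error: summed over the replicates, Cdkn1c had 22 stops (exact Poisson 95% interval 13.8 to 33.3) and Dmrt1 13 (6.92 to 22.2). Over all genes the median was 80.8 CPM, with Hsd17b14 above it and Cdkn1c and Dmrt1 below it. The value of Ak1 was lower than the median, but counting error does not set it apart. Scaled to CPM, the interval of its 95 stops over both replicates (76.9 to 116) includes the median. The labels do not say whether the replicates were separate cultures, and the SD may therefore be only technical.

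Relative to the RNA of the control cells, on the whole transcript, the log2 CLIP ratio was 3.32 ± 0.07 for Hsd17b14, 0.23 ± 0.01 for Ak1, -1.54 ± 0.35 for Cdkn1c and -1.89 ± 0.14 for Dmrt1 (SD over 2 replicates), against 0.08 for the median gene. From the highest of 6532 genes these are ranks 76, 3002, 5870 and 6097. The SD values leave out counting error. That of Ak1 comes from 48 and 47 stops and is far narrower than the counting interval of its 95 stops (76.9 to 116). Ak1 is therefore not set apart from the median gene. At least 4-fold more CLIP than RNA was seen for 9.06% of genes, at least 4-fold more footprints than RNA in siCtrl for 1.41%, and both for 0.888%. Hsd17b14 passed both limits and the other 3 genes passed neither. Both ratios divide by siCtrl RNA, as do the RNA ratios that chose the genes. Hsd17b14 had 385 CDS reads there, used for TE, and 580 reads on the whole transcript, used for CLIP. An RNA value that is too low raises both ratios, and one that is too high lowers both. Against siCtrl footprints in place of RNA, the log2 CLIP ratio of Hsd17b14 was 0.70, at percentile 58.5 of all genes, and those of Ak1 (1.38), Cdkn1c (-1.92) and Dmrt1 (-2.12) were at percentiles 74.4, 6.87 and 5.63. The 4 genes thus had no common level of crosslinking: they spanned 5.21 log2 units over RNA.

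**Figure D4:**
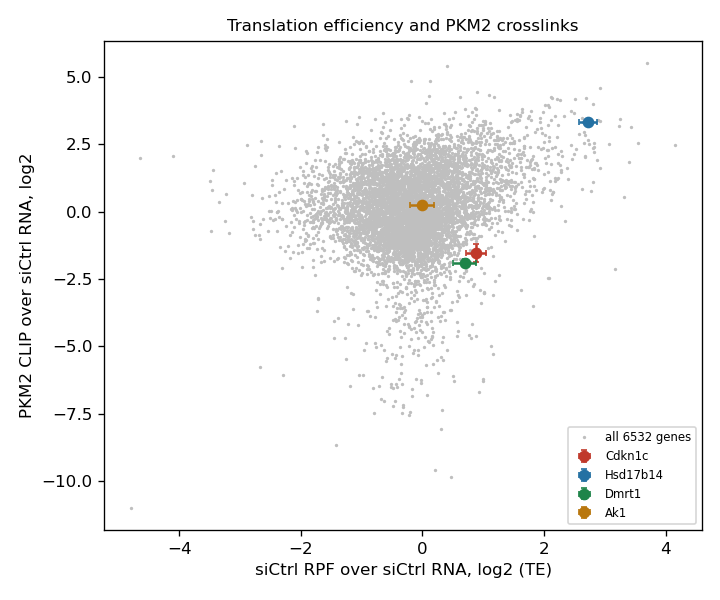
Translation efficiency in siCtrl cells (x axis, log2 RPF over RNA, bars are 95% counting intervals) and PKM2 CLIP over siCtrl RNA (y axis, log2, bars are the SD over 2 replicates) for 6532 genes, with the 4 genes in colour. Hsd17b14 lies at the upper right (2.72 and 3.32), Ak1 near the centre, and Cdkn1c and Dmrt1 at low CLIP (-1.54 and -1.89). The SD bars leave out counting error.

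The other genes of the pathways and families of the 4 genes were counted in 5 lists of 17 to 25 measured genes, and the lowest and the highest gene of a list are those by the mean of its RNA and RPF ratios. Over all genes, the lower direction held 1.24% in RNA and 1.53% in RPF, and the higher direction 2.88% in RNA and 2.66% in RPF. Among CDK inhibitors, CDKs, cyclins and their partners, 25 of 37 named genes were in the table, and the count past 1.5-fold was 0 lower in both kinds, 1 higher in RNA and 0 higher in RPF. The list's median was -0.05 in RNA and -0.06 in RPF, against 0 for all genes by the centring. By the mean of both ratios the cyclin Ccnd3 was highest, at 0.62 (0.50 to 0.74) in RNA and 0.38 (0.31 to 0.46) in RPF, and the cyclin Ccne2 lowest, at -0.43 (-0.63 to -0.23) and -0.35 (-0.64 to -0.05). In RPF alone E2f6 (0.41) stood above Ccnd3, and Cdk6 (-0.41) and Ccnd1 (-0.36) below Ccne2. Cdkn1b (p27Kip1), the only relative of Cdkn1c from the CDK inhibitor families of the list that was in the table, is named here after its values were seen: it had 300 RNA reads in siPKM against 251 in siCtrl, at 0.44 in RNA and 0.22 in RPF.

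Imprinted genes, of which 18 of 56 were in the table, had 1 gene past 1.5-fold in the lower direction in RNA (5.56%, against 1.24% of all genes) and 0 in RPF (1.53% of all genes), and 0 in the higher direction (2.88% and 2.66% of all genes), with medians of 0.14 and 0.09. The lowest by the mean of both ratios was Phlda2, a brake on placental growth from the same imprinted domain as Cdkn1c, with 424 RNA reads in siPKM against 709 in siCtrl (-0.56, -0.73 to -0.39) and 1385 against 2333 footprints (-0.50, -0.60 to -0.40). The highest by that mean was Grb10, an adaptor that restrains growth factor signalling, at 0.44 and 0.39, although Peg10 was higher in RNA (0.51) and Inpp5f (0.42) and Copg2 (0.39) in RPF. The gene past 1.5-fold in RNA, where it lay below Phlda2, was Mcts2, at -0.66 in RNA and -0.38 in RPF, named after its values were seen. In the annotation of GRCm38.p6, used for gene order only, Phlda2 is also the nearest gene of the table on one side of Cdkn1c, with 1 other protein-coding gene between them. On the other side it is the tetraspanin Cd81, with 3 between them, at 0.22 (0.12 to 0.33) in RNA and 0.29 (0.22 to 0.36) in RPF. Cd81 is also one of the imprinted genes of the list, so the 2 list genes beside Cdkn1c differed in direction.

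The neighbours of the other 3 genes were taken the same way. Beside Hsd17b14 were Bcat2, a mitochondrial aminotransferase, at -0.09 in RNA and -0.14 in RPF, and Nucb1, a calcium-binding Golgi protein, at 0.39 and 0.61. Beside Dmrt1 were Kank1 at -0.21 and 0.00 and D19Bwg1357e (Pum3) at -0.09 and -0.03. Beside Ak1 were Fpgs, which adds glutamates to folates, at -0.34 and -0.38, and the mitochondrial carrier Slc25a25 at 0.14 and 0.42. Of the 8 neighbours, those of Cdkn1c included, only Nucb1 was past 1.5-fold, higher in RPF.

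Hydroxysteroid and other short-chain dehydrogenases, the family of Hsd17b14, had 17 of 42 named genes in the table. In RNA 1 was at least 1.5-fold lower and 1 higher (5.88% each, against 1.24% and 2.88% of all genes), in RPF 0 lower and 2 higher (11.8% higher, against 1.53% lower and 2.66% higher of all genes), and the medians were 0.09 and 0.22. The lowest was Pecr, a peroxisomal enoyl-CoA reductase, at -0.74 (-0.98 to -0.49) in RNA and -0.54 (-0.70 to -0.38) in RPF. The highest by the mean of both ratios was the hydroxybutyrate dehydrogenase Bdh2, at 0.53 and 0.66, although Bdh1 was higher in RNA (0.54). Past 1.5-fold in 1 kind, and there above Bdh2, were the sterol dehydrogenase Nsdhl (0.59 in RNA) and Decr2 (0.70 in RPF), named after their values were seen. The relatives with the same name stem stood at 0.09 and 0.38 (Hsd17b4), -0.00 and 0.05 (Hsd17b10), 0.10 and 0.41 (Hsd17b11) and 0.08 and 0.22 (Hsd17b12) in RNA and RPF.

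DM-domain and germ cell genes lay past 1.5-fold in both directions. For 59 named symbols, 2 of them for Tfap2c, 22 genes were in the table, none of them another DM-domain gene. In RNA 2 were at least 1.5-fold lower and 2 higher (9.09% each, against 1.24% and 2.88% of all genes), in RPF 3 lower and 3 higher (13.6% each, against 1.53% and 2.66% of all genes), with medians of 0.19 and 0.18. Tdrd12, a tudor protein of the piRNA pathway, was lowest, with 489 RNA reads in siPKM against 1122 in siCtrl (-1.02, -1.17 to -0.86) and -0.90 in RPF. Tcfap2c (Tfap2c), a transcription factor of germ cell and trophoblast specification, was lower in both at -0.60 and -0.76. In the other direction stood Dazl, an RNA-binding protein of germ cells, with 260 RNA reads in siPKM against 153 in siCtrl (0.94, 0.66 to 1.23) and 1.04 in RPF, and the meiotic chromosome protein Sycp3 at 0.61 and 0.81. Past 1.5-fold in RPF alone were Dnd1 (-0.64) and Stag3 (0.85), named after their values were seen. The 4 germ cell markers in the table (Sycp3, Ddx4, Dazl and Stra8) summed to 175 CPM in siPKM RNA against 115 CPM in siCtrl RNA. In RPF they summed to 191 CPM in siPKM against 123 CPM in siCtrl. Of these markers 2, Sycp3 and Dazl, were at least 1.5-fold higher in each kind. Ddx4 stood at 0.46 in RNA and 0.38 in RPF. Stra8 differed in direction between the kinds, at 0.26 in RNA and -0.27 (-0.55 to -0.003) in RPF. The part of germ cells in the Dmrt1 values was not tested.

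Adenylate kinases, creatine kinases and other phosphotransfer and energy-sensing enzymes had 23 genes in the table for 46 named symbols. The 23 include Taf9, which is not such an enzyme, at -0.10 in RNA and -0.03 in RPF. It is part of the percentages and medians below. In RNA 1 was at least 1.5-fold lower (4.35%, against 1.24% of all genes) and 0 higher (2.88% of all genes), in RPF 0 in either direction (1.53% and 2.66% of all genes), and the medians were -0.08 and -0.05. The lowest was Adk, the adenosine kinase, with 1088 RNA reads in siPKM against 2049 in siCtrl (-0.73, -0.84 to -0.63) and -0.57 in RPF. The highest was Ak4, a mitochondrial adenylate kinase, at 0.48 (0.30 to 0.66) and 0.57 (0.42 to 0.71). The brain-type creatine kinase Ckb stood at -0.08 in RNA and -0.05 in RPF. Ak1 and Ak4 therefore differed in direction, with Ak1 below 0 and Ak4 above it in both kinds of library.

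**Figure D5:**
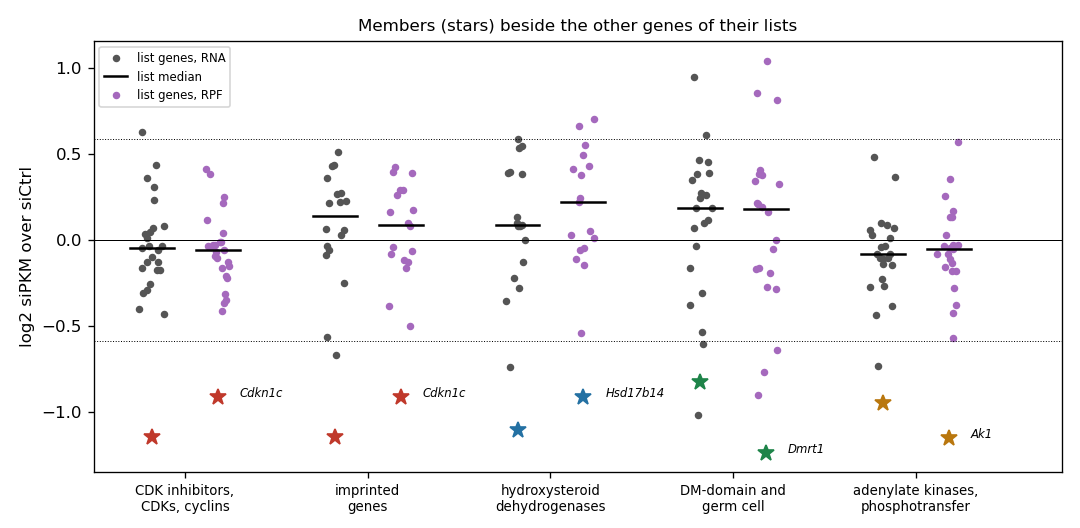
Log2 ratio of siPKM over siCtrl in RNA (grey) and RPF (purple) for the genes of 5 lists in the table, with the list median as a bar, the 4 genes as stars and 1.5-fold as dotted lines. List medians lie between -0.08 and 0.22, and each star lies below every other gene of its list except Dmrt1 in RNA, where Tdrd12 is lower.

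Likeness was measured as the distance between profiles of log2 CPM over the 4 RNA and RPF libraries, each gene centred on its own mean, so it reflects TE as much as the siPKM over siCtrl ratio. Nearest to Cdkn1c were the microtubule regulator Stmn1 (distance 0.33) and the transcription factor Mycn (0.33), against a median distance of 1.60 over all genes. Nearest to Dmrt1 were Clstn3 (0.27) and Dnmt3b (0.29), against 1.34. Nearest to Ak1 were Tdrd12 (0.18) and Gatsl3 (0.20), against 1.22. Hsd17b14 had no gene as near: the closest were the transcription factor Klf2 (0.44) and Fkbp1a (0.72), against a median of 3.16. Klf2 resembled it in TE, at 2.62 in siPKM and 2.87 in siCtrl, with ratios of -0.52 in RNA and -0.74 in RPF.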

How the data were processed

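The submitters' processing notes name cutadapt and Bowtie2 with the mm9 build; their versions, how reads were counted, strand and multiple matches are not given in the sources used here. Per the file headers, the authors deposited raw counts of reads per transcript region and of reverse transcription stops, and log2 values (RPM, translation efficiency, CLIP enrichment). The authors' column of mean stops was left out (1 column). The row with more RNA reads was used for a repeated symbol, which dropped 3 rows; a floor of 64 mean reads removed 0. Counts were scaled by the library's sum, 0.5 reads were added, and log2 ratios were centred on the median of 6532 genes. Intervals are 95% and, like the limits for a count of 0 (3 counts), cover counting error only, as the use of molecular identifiers is not given in the sources used here. With 1 library per siRNA and kind there is no test and no p-value. The ratio code was tested on simulated data. Symbols were matched to GRCm38.p6 for 6468 genes. The 4 genes and the lists were chosen with earlier results of these data known. Named besides the 4 genes and the target are the lowest 5 and next 3 in RNA and RPF, the 2 most alike genes per member, and each list's lowest, highest and any gene past 1.5-fold in both kinds; neighbours and family relatives were added after the data were seen. edgeR 4.0.16 gave TMM factors. Python 3.11.15, pandas 2.3.3 and scipy 1.17.1 were used.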

Additional observations from a re-analysis of the deposited data

How the results depend on the processing

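The RNA, RPF and TE ratios of the 4 genes moved by less than their counting intervals under the authors' totals, TMM factors, 5 added reads, all CDS reads, all transcript reads and, where the gene was kept, a floor 4 times higher, which removes Dmrt1. The TE ratio of Ak1 was 0.0080 with all transcript reads, against -0.20, so its direction turned inside its interval. RNA ratios ranged from -1.14 to -0.93 for Cdkn1c, -1.10 to -0.90 for Hsd17b14, -0.999 to -0.77 for Dmrt1 and -1.16 to -0.90 for Ak1, with 3' UTR reads alone, an alternative chosen after seeing the data, included. The counts of all genes past 1.5-fold in TE, 54 lower and 12 higher, came to 29 and 6 with all transcript reads and to 35 and 5 with the higher floor. With that floor the dehydrogenases had 0 genes higher in RNA, 0 in RPF and an RPF median of 0.061, and the germ cell list 1 gene higher in RNA and an RPF median of 0.0093, since fewer genes are tested. CLIP over RNA depended on the denominator: with siPKM RNA it was -0.63 for Cdkn1c, 4.30 for Hsd17b14, -1.06 for Dmrt1 and 1.26 for Ak1, and with CDS RNA reads -1.07, 3.25, -1.43 and 1.24; with 5 counts added it was -1.07 for Cdkn1c, -1.18 for Dmrt1 and 0.36 for Ak1. Without replicate 1 or without replicate 2 it lay between -1.81 and -1.31 for Cdkn1c, 3.27 and 3.37 for Hsd17b14, -1.99 and -1.80 for Dmrt1 and 0.23 and 0.24 for Ak1. With all 6 libraries in the likeness measure, 0 of the 2 nearest genes were shared for Cdkn1c, 0 for Hsd17b14, 1 for Dmrt1 and 0 for Ak1. No paired analysis was possible because each siRNA had 1 library of each kind.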
